A study of Mus musculus with 21 samples.

Results

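The extracellular matrix is cut by secreted metalloproteinases and their cutting is held back by a small set of inhibitors. Here the mouse genes of these families were followed through single-cell RNA sequencing of melanoma, its lung metastases and healthy lung. The members were all gene symbols in the deposited count matrix that name a matrix metalloproteinase (Mmp), a secreted protease with thrombospondin repeats (Adamts) or a tissue inhibitor of metalloproteinases (Timp). The symbol alone decided membership, and 45 of 32285 genes met it, 22 of them Mmp, 19 Adamts and 4 Timp. Together they held 448701 unique molecular identifiers (UMIs, each 1 captured RNA molecule), which was 0.137% of all UMIs. The 4 inhibitors made up 46.1% of these molecules, the Mmp genes 33.4% and the Adamts genes 20.6%. No UMI was found for 3 members (Mmp1b, Mmp7 and Mmp20), and 11 members, these 3 among them, had under 100 UMIs in 100359 cells.

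Fragments of MT-ret mouse melanoma (MM), which carry no fluorescent label, were transplanted into mT/mG mice, whose host cells all express tdTomato unless Cre has removed it. No Cre was used. The primary tumor grew in the skin and was resected, and lung metastases followed. The groups were unchallenged lung (4 libraries, from mice without tumor), the host cells of the lung metastasis, called its tumor microenvironment or TME (4 libraries), the primary tumor TME (4 libraries), lung metastasis MM cells (2 libraries) and primary tumor MM cells (2 libraries). MM cells were the tdTomato- cells of the same tumors. Host cells were sorted as living tdTomato+ or as living tdTomato+ CD45- cells, and the labels do not tell these gates apart, so that shares of immune cells were not compared. Replicate 1-3 of each TME group combined several mice that were sequenced together in 1 run. The labels name lung as the tissue of every library, the primary tumor included. Neither age, sex nor a further allele was taken from the labels. Tissues were digested with enzymes, frozen and thawed before sorting. Primary tumor and lung also differ in organ, so that organ and tumor cannot be told apart where the primary tumor was one of the sides compared. The paper states that the metastasis samples also held a small amount of adjacent tissue without tumor.

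Library totals ran from 1777036 to 60339415 UMIs. Cells were grouped by clustering without the member genes and named by standard markers, and different libraries shared at most 227 cell barcodes. The fibroblast class held 5397 cells, of which 3644 lay in 4 of 12 subclusters and were left out. These 4 were left out because none of their 20 top genes was a stromal marker, while 2 to 5 were markers of 1 other class. Markers of MM cells, macrophages, endothelium or ciliated cells were raised in them, and raised stromal markers were not counted there. The top genes of 2 of them were of yet other cells, surfactant genes in the 1 with macrophage markers and immunoglobulin and monocyte genes in the 1 with endothelial markers. The cells left out were unevenly spread over the tissues. The subcluster with MM markers (1490 cells) held 1465 of the primary tumor, 1451 of them in replicate 6. Those with macrophage, endothelial and ciliated cell markers (896, 757 and 501 cells) held 890, 750 and 501 of unchallenged lung. Of the metastasis TME they held 5, 5, 7 and 0 cells, in the order given. In the 1753 cells kept, called fibroblasts here, each of the 8 fibroblast markers had a UMI in the summed cells of each of 8 libraries. Such sums do not show the identity of single cells. A kept peribronchial subcluster of 126 cells, 92 of them from the metastasis, had 7 of 8 MM markers raised, with Dct at 4096 CPM. The cells kept also include a subcluster of 313 mesothelial cells and 1 of 133 smooth muscle cells and pericytes. Of the latter, 85 came from the primary tumor, 39 from the metastasis and 7 from unchallenged lung, and the part of this subcluster in the results was not tested. Libraries with at least 20 cells of a class entered its comparisons, with 44 to 598 fibroblasts, 51 to 1745 endothelial cells, 35 to 6552 macrophages and 28 to 996 neutrophils a library. Summed MM markers (Dct, Pmel, Mlana, Tyrp1, Cited1, Sox10, Syt4 and Cst6) were at 0 to 5.4 counts per 1000000 UMIs of the class (CPM) in fibroblasts of unchallenged lung and at 495 to 4414 CPM in those of both tumor sites. The lung metastasis TME replicate 5 library, although sorted for tdTomato+ cells, held 2048 cells of the MM class. Neutrophil markers in classes other than neutrophils were highest in unchallenged lung replicate 6 (2771.2 CPM in fibroblasts). Macrophages of unchallenged lung reached a higher value than these fibroblasts, given below. The doublets of the deposited cells were not removed further.

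Background on the families helps to read the values. Mmp proteins are made as inactive precursors. Gelatinases (Mmp2 and Mmp9) cut denatured collagen and basement membrane, collagenases (Mmp8 and Mmp13) cut fibrillar collagen, Mmp12 cuts elastin, stromelysins (Mmp3 and Mmp10) cut a broad range of substrates, and the membrane-type enzymes (Mmp14 to Mmp17, Mmp24 and Mmp25) act at the cell surface, where Mmp14 with Timp2 activates Mmp2. Among the Adamts proteases, Adamts2, Adamts3 and Adamts14 trim procollagen, Adamts1, Adamts4, Adamts5, Adamts8, Adamts9, Adamts15 and Adamts20 cut large proteoglycans such as aggrecan and versican, and Adamts13 cuts von Willebrand factor. Timp3, unlike the other inhibitors, stays bound to the matrix and also blocks Adamts4 and Adamts5.

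A run of 9 Mmp genes lies on mouse chromosome 9 between 7272514 and 7699585 (GRCm38), in the order Mmp13, Mmp12, Mmp1b, Mmp3, Mmp10, Mmp8, Mmp27, Mmp20 and Mmp7. Mmp12 and Mmp1b overlap on opposite strands. An AP-1 binding motif, TGANTCA, was searched on both strands of the 250 bases before each RefSeq start (GRCm38.p6). It was present in 7 of the 11 promoters of this run and in 6.75% of 32851 promoters of all genes. By gene, 7 of the 9 had a promoter with it, and 0 of 22 other members that could be matched. The remaining members, Mmp2 and Mmp9 among them, had no matched promoter and were not searched. A match describes the letters and not binding. The 100 bases before the start are shown for 5 genes of the run because they show where the motif lies in genes of unlike expression, with the motif in capitals.
Mmp13, chr9:7272414-7272513, plus strand: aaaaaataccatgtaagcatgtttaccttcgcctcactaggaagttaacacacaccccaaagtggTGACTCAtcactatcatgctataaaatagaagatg
Mmp12, chr9:7347274-7347373, plus strand: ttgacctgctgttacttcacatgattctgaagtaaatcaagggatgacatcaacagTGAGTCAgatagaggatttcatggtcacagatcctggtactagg
Mmp3, chr9:7445722-7445821, plus strand: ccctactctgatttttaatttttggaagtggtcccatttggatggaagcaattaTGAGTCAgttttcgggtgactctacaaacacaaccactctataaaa
Mmp10, chr9:7502242-7502341, plus strand: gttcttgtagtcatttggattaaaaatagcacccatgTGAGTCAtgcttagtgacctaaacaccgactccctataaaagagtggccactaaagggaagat
Mmp7, chr9:7691990-7692089, plus strand: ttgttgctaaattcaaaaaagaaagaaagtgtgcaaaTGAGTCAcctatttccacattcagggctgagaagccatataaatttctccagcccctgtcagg
The motif began 35 bases before the start in Mmp13, 44 in Mmp12, 46 in Mmp3 and 63 in both Mmp10 and Mmp7. The Mmp12 window belongs to a second start inside the gene. The promoters of Mmp8 and Mmp27 and those of the first Mmp12 start and the second Mmp7 start held no match. The genes of the run were read in different cells. Mmp3 was found in fibroblasts (median 89.7 CPM over 8 libraries), Mmp12 (115 CPM) and Mmp13 (11.3 CPM) in macrophages, Mmp8 in neutrophils (498 CPM), and Mmp10 and Mmp27 had 76 and 48 UMIs in all cells.

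The level of a member is given as CPM, its UMIs scaled to 1000000 UMIs of the cells of a class in a library. With 3′ counting 1 molecule gives 1 UMI, so these levels were not divided by transcript length. Among the 33 members with at least 100 UMIs in the classes compared, the class of the highest median level was fibroblasts for 14, MM cells and endothelium for 4 each, macrophages, neutrophils and ciliated cells for 3 each, and NK and B cells for 1 each. In fibroblasts the highest members were Timp3 (623 to 3784 CPM), Timp1 (18.8 to 987 CPM), Timp2 (200.2 to 2169 CPM), Mmp14 (113 to 735 CPM) and Mmp2 (143 to 377 CPM). Endothelium was highest in Timp3 (318 to 1031 CPM), Timp2 (234 to 599.7 CPM), Adamts1 (120 to 362 CPM), Adamts9 (23.4 to 339 CPM) and Mmp14 (28.6 to 311 CPM). Both stromal classes were therefore led by inhibitors, with the membrane-type Mmp14 among their leading proteases. Adamts18 and Mmp28 also had their highest median in endothelium, but at 2.48 and 5.77 CPM.

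Neutrophils carried the highest single protease level, that of Mmp9 (690.1 to 1917 CPM over 9 libraries), followed by Mmp8 (106 to 893 CPM), Timp2 (86.1 to 372 CPM), Mmp25 (30.7 to 121 CPM) and Timp1 (0 to 115 CPM). Both Mmp9 and Mmp8 are stored in neutrophil granules. Each cell with at least 1000 UMIs was thinned to 1000 UMIs, and cells with fewer were left out of these shares. Among those thinned, a median of 62.4% of neutrophils held an Mmp9 UMI against 2.08% of B cells, a class not known for this gene. In macrophages the leading members were Timp2 (111 to 388 CPM), Mmp12 (15.7 to 619 CPM), Mmp14 (11.5 to 144 CPM), Mmp19 (18.9 to 92.2 CPM) and Timp3 (2.72 to 107 CPM). Monocytes, which give rise to macrophages, had Mmp12 at a median of only 1.16 CPM. Their first 5 were Mmp8 (35.1 CPM), Timp2 (33.2 CPM), Adamts10 (22.3 CPM), Mmp9 (13.2 CPM) and Mmp14 (7.82 CPM). Between libraries of monocytes, Mmp8 ran from 9.85 to 113 CPM and Mmp9 from 0 to 164 CPM. When the member genes were kept in the clustering, the monocyte median was 23.6 CPM for Mmp8 and 0 for Mmp9. The part of neutrophil RNA in these values was not tested.

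Lymphocytes held few members at a level above 20 CPM, and 1 of them stood out. Adamts14, a procollagen-trimming protease, reached 72.3 to 164 CPM in NK cells of 5 libraries, with a median of 109.9 CPM, against 12.9 CPM in fibroblasts, the next class. In NK cells it was followed by Timp2 (85.5 CPM), Adamts10 (73.0 CPM), Mmp9 (9.62 CPM) and Adamts6 (9.15 CPM). T cells were led by Adamts10 (63.0 CPM), Timp2 (45.7 CPM), Mmp9 (24.7 CPM), Adamts6 (20.9 CPM) and Mmp25 (17.3 CPM). B cells were led by Adamts10 (36.9 CPM), Timp2 (35.7 CPM), Adamts6 (22.6 CPM), Timp3 (8.70 CPM) and Mmp9 (7.0 CPM). Between libraries Mmp9 ran from 0 to 185 CPM in NK cells, from 0 to 147 CPM in B cells and from 0 to 57.6 CPM in T cells. Mmp25 ran from 0 to 36.6 CPM in T cells. Neutrophil RNA was present in some of the libraries, and the part of such RNA was not tested.

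Epithelial cells of the lung had a different leading protease. The membrane-type Mmp15 was the first member in ciliated cells (135 to 231 CPM, 4 libraries) and in AT-2 cells, the surfactant-producing cells of the alveolus (97.7 to 209 CPM, 3 libraries). Club cells had Timp3 (118 CPM) and Timp2 (113 CPM) first and then Mmp15 (46.2 CPM), followed by Adamts5 (30.9 CPM) and Mmp14 (29.9 CPM). Behind Mmp15, ciliated cells held Adamts5 (84.0 CPM), Timp3 (78.9 CPM), Timp2 (38.7 CPM) and Mmp23 (34.9 CPM), and AT-2 cells held Timp3 (104 CPM), Timp2 (95.4 CPM), Adamts1 (57.6 CPM) and Mmp14 (32.8 CPM). The rare inhibitor Timp4 had its highest level in ciliated cells (7.92 to 25.4 CPM).

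Sorted MM cells carried 5 members at a median above 100 CPM over 4 libraries, namely Timp2 (488 to 559 CPM), Mmp2 (173 to 301 CPM), Adamts1 (181 to 413 CPM), Mmp14 (155 to 196 CPM) and Timp1 (81.2 to 177 CPM). The components of the Mmp14, Timp2 and Mmp2 activation system were thus all read in the melanoma cells. MM cells also had the highest median of the membrane-type Mmp16 (30.1 CPM) and Mmp17 (16.3 CPM) among the named classes, and 3.54 to 6.40 CPM of Adamts20, a protease known from melanoblast migration.

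**Figure D1:**
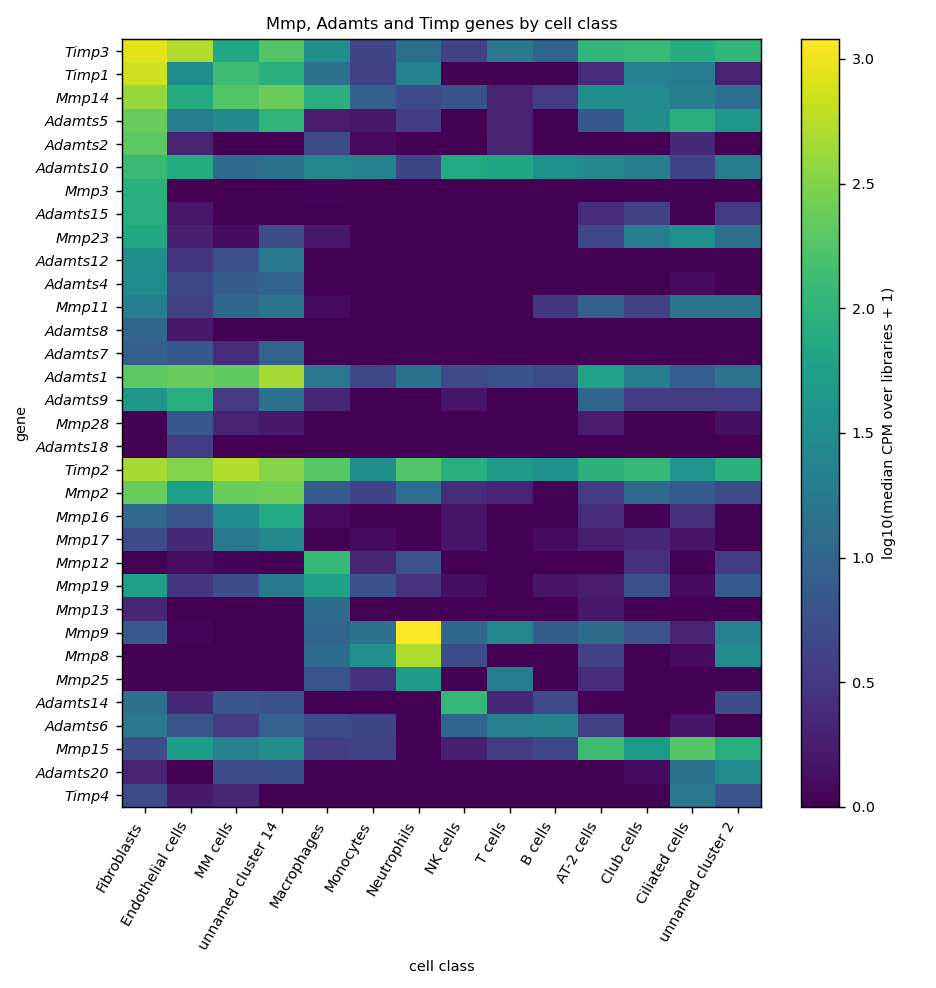
Color gives log10 of the median CPM over libraries plus 1 for the 33 members with at least 100 UMIs (rows) in each named cell class and 2 unnamed clusters (columns). Neutrophils stand out for Mmp9, Mmp8 and Mmp25, fibroblasts for most Adamts genes, and NK cells for Adamts14.

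In fibroblasts, the inhibitor Timp1 was high at both tumor sites and low in healthy lung. It read 18.8, 128 and 68.1 CPM in unchallenged lung replicates 4, 5 and 6, 987 and 907 CPM in lung metastasis TME replicates 5 and 6, and 721, 723 and 946 CPM in primary tumor TME replicates 4, 5 and 6. No library of either tumor site overlapped with unchallenged lung, and the tumor sites overlapped with each other. Timp1 (chromosome X, 20870166 to 20874735, within Syn1 on the opposite strand) rose in the metastasis against unchallenged lung (log2 fold change 3.67, SE 0.59, adjusted p = 0.0088) and in the primary tumor (3.47, SE 0.56, adjusted p = 0.0016). Of the fibroblasts of metastasis replicates 5 and 6, 212 of 429 and 31 of 49 lay in a mesothelial subcluster. It held 60 cells of unchallenged lung, 52 of them among the 118 fibroblasts of replicate 6, so that replicates 4 and 5 with 44 and 148 fibroblasts had few. Of the 313 cells of this mesothelial subcluster, 245 came from the metastasis TME. Its top genes include Upk3b and Msln, and also Wt1, Lgals7 and Calca. The paper lists the latter in the signature of its metastasis cluster of cancer-associated fibroblasts. Whether both are the same cells was not tested. Without this subcluster Timp1 was not called in the metastasis (2.09, adjusted p = 0.14). The other inhibitors lay the other way. Timp3 read 1172, 3784 and 3618 CPM in unchallenged lung, 847 and 918 CPM in the metastasis, and 623, 876 and 736 CPM in the primary tumor. Timp2 read 518, 2169 and 1519 CPM, then 860.2 and 418 CPM, then 313, 413 and 200.2 CPM in the same order. Both changed in the primary tumor (Timp3 fell by 1.85, SE 0.49, adjusted p = 0.023, and Timp2 fell by 2.10, SE 0.57, adjusted p = 0.025, on the log2 scale) and neither passed the test in the metastasis (Timp3 -1.66, adjusted p = 0.11, and Timp2 -1.09, adjusted p = 0.35). Timp3 was called there by DESeq2 (-1.65, adjusted p = 0.014) and without unchallenged lung replicate 4 (-2.06, adjusted p = 0.034). Timp4 was at 2.72 to 15.8 CPM in unchallenged lung, 5.63 and 10.7 CPM in the metastasis and 0 in the primary tumor, and was too low to be tested. Fewer fibroblasts of a subtype and less RNA per cell cannot be told apart in these sums.

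Of 22 members tested in fibroblasts of primary tumor against unchallenged lung, 5 rose and 5 fell, where 8.10% of all 10234 genes rose and 9.38% fell. The subtypes differed between the sides. Parenchymal subclusters held 493, 220 and 103 cells of the primary tumor and 0 of unchallenged lung, and the alveolar subcluster held 0 and 85. A change of subtype and a change within a subtype cannot be told apart here. The libraries of the 2 tissues did not overlap for 13 of the 22 members and for 35.5% of all genes. The median log2 fold change of the members was -0.23 and that of all genes was 0.04. The risers besides Timp1 were 3 Adamts genes and Mmp14. The proteoglycan-cutting Adamts4 (chromosome 1, 171250421 to 171260637) was at 0, 3.17 and 2.72 CPM in unchallenged lung and at 71.2, 39.9 and 55.1 CPM in the primary tumor (log2 fold change 4.51, SE 0.55, adjusted p = 0.00035). Adamts12 was at 15.0, 28.5 and 13.6 CPM against 112, 93.5 and 76.7 CPM (2.25, SE 0.37, adjusted p = 0.0019). Adamts14 had 2 UMIs in unchallenged lung and 123 in the primary tumor (4.05, SE 0.75, adjusted p = 0.0036), a ratio of 19.1 with a 95% counting interval of 5.17 to 159. Mmp14 (chromosome 14, 54431612 to 54445364) was at 113, 227 and 193 CPM against 735, 553 and 552 CPM (1.87, SE 0.37, adjusted p = 0.0053). None of these overlapped between the tissues. Mmp16 and Mmp19 read higher as well, without passing the test (1.33, adjusted p = 0.16, and 1.28, adjusted p = 0.052).

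The fallers besides Timp2 and Timp3 were Adamts8, Adamts10 and Adamts17. Adamts8, a proteoglycan-cutting protease of lung, was at 60.1, 24.3 and 32.7 CPM in unchallenged lung, 7.88 and 10.7 CPM in the metastasis and 0.890, 1.38 and 0.924 CPM in the primary tumor, where it had 5 UMIs in all. The 3 tissues did not overlap. It fell by 4.96 on the log2 scale in the primary tumor against unchallenged lung (SE 0.57, adjusted p = 0.00024). Adamts10, a protease that acts on fibrillin microfibrils, was at 391, 208 and 191 CPM against 69.4, 117 and 70.5 CPM (-1.49, SE 0.35, adjusted p = 0.014). Adamts17, a close relative of Adamts10 and Adamts19 in the family, was at 63.9, 19.0 and 5.44 CPM against 1.78, 2.75 and 0.616 CPM (-4.14, SE 0.92, adjusted p = 0.0097). The call for Timp2 was lost without primary tumor replicate 4 (adjusted p = 0.055) or 6 (0.11) or unchallenged lung replicate 5 (0.11) or 6 (0.062), that for Timp3 without any of primary tumor replicates 4, 5 and 6 (0.067, 0.063 and 0.090) or unchallenged lung replicates 5 and 6 (0.090 and 0.080), that for Adamts10 without primary tumor replicate 6 (0.069), and that for Adamts17 without the same library (-3.42, adjusted p = 0.055). With all cells of the fibroblast class, Timp2 (-1.62, adjusted p = 0.13), Timp3 (-1.57, adjusted p = 0.076) and Adamts10 (-1.48, adjusted p = 0.097) were not called. Adamts17 was too low to be tested without unchallenged lung replicate 4 or 5. Without unchallenged lung replicate 5 the log2 fold changes were 4.27 for Timp1, 5.18 for Adamts4 and 2.85 for Adamts12, and without replicate 4 that of Adamts14 was 4.72. Within the run that held replicates 5 and 6, 8 of 21 members were called (16.9% of all genes), among them Timp1 (3.10), Adamts4 (3.98), Adamts8 (-4.60) and Timp3 (-2.15), while Adamts10 was not called (-1.06, adjusted p = 0.092) and Adamts17 was not tested.

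In the lung metastasis against unchallenged lung, 3 of 22 members were called in fibroblasts, all higher (3.32% of all genes were higher and 2.19% lower), and 8 had libraries that did not overlap (33.7% of all genes). They were Timp1, Adamts4 (20.8 and 39.3 CPM, log2 fold change 3.42, SE 0.64, adjusted p = 0.014) and Adamts14 (12.4 and 25 CPM, 3.59, SE 0.85, adjusted p = 0.033, 29 against 2 UMIs, ratio 11.1 with a counting interval of 2.82 to 96.3). The median log2 fold change was -0.38 over the members and 0.03 over all genes. In the mesothelial cells of metastasis replicates 5 and 6 and of unchallenged lung replicate 6, Timp1 read 1431, 1093 and 20.5 CPM. Without them Adamts4 and Adamts14 lost the call as Timp1 did (Adamts4 2.63, adjusted p = 0.12, Adamts14 2.54, adjusted p = 0.25), while 13 of 27 members tested were called between primary tumor and unchallenged lung (20.0% of all genes). In alveolar fibroblasts Timp1 was at 237 CPM in metastasis replicate 5 and at 5.53, 54.6 and 11.6 CPM in unchallenged lung replicates 4, 5 and 6. Adamts4 was not called without unchallenged lung replicate 5 (4.10, adjusted p = 0.059), and Adamts14 not without metastasis replicate 5 (0.082) or 6 (0.082), primary tumor replicate 6 (0.052) or unchallenged lung replicate 5 (0.15) or 6 (0.072), nor with all cells of the fibroblast class (2.40, adjusted p = 0.098). Timp1 kept its call without each library, with a log2 fold change of 4.48 without unchallenged lung replicate 5, and Adamts14 was at 4.26 without replicate 4. Within the run of replicates 5 and 6, the same comparison called 5 of 21 members and 7.08% of all genes, the members being Timp1 (3.25), Adamts4 (3.09), Adamts14 (4.23), Adamts9 (2.28) and Timp3 (-2.05).

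Fibroblasts of the 2 tumor sites differed in 1 of 22 members, Adamts8, which was higher in the metastasis by 2.97 on the log2 scale (SE 0.68, adjusted p = 0.032, 17 against 5 UMIs), with 2.78% of all genes higher there and 1.27% lower. The alveolar subcluster, whose Adamts8 values are given below, held 81 cells of the metastasis and 0 of the primary tumor. Its part in this difference was not tested. The libraries of the sites did not overlap for 11 of the 22 members and for 30.0% of all genes. The member median was -0.31 and that of all genes -0.01. The call was lost without metastasis replicate 5 (adjusted p = 0.28) or 6 (0.075) and without primary tumor replicate 4 (0.061), 5 (0.059) or 6 (0.17), and with all cells of the fibroblast class (3.49, adjusted p = 0.10). Adamts9, which is secreted and cuts versican, was at 69.8 and 200.1 CPM in the metastasis and 46.3, 19.3 and 36.3 CPM in the primary tumor (1.82, SE 0.58, adjusted p = 0.12), and Adamts12 was at 35.4 and 28.6 CPM against 112, 93.5 and 76.7 CPM (-1.54, SE 0.39, adjusted p = 0.051). Neither overlapped between the sites. By their library names, replicates 5 and 6 of both sites came from the same mice. With the replicate number as a block, 4 of 22 members and 5.31% of all genes were called, namely Adamts9 (2.28, adjusted p = 0.0038), Adamts8 (3.31, adjusted p = 0.027), Adamts12 (-1.59, adjusted p = 0.035) and Adamts6 (-2.90, adjusted p = 0.036). Adamts6 was at 3.38 and 17.9 CPM in the metastasis and 13.4, 48.1 and 40.3 CPM in the primary tumor. Summed Mmp per summed Timp CPM was 0.213 to 0.267 in unchallenged lung, 0.336 to 0.348 in the metastasis and 0.591 to 0.759 in the primary tumor, and these ranges did not overlap.

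The subtypes of the unchallenged lung fibroblasts differed in which members they held. In adventitial fibroblasts of replicates 5 and 6 the broad-range protease Mmp3 read 685 and 1068 CPM, Adamts5 1020.5 and 677 CPM, and Timp3 4451 and 6043 CPM. Alveolar fibroblasts of replicates 4, 5 and 6 held Adamts8 (82.9, 91.0 and 81.2 CPM) and Adamts15 (227, 214 and 220.5 CPM), 2 proteoglycan-cutting proteases whose genes lie close together on chromosome 9. In the adventitial cells Adamts8 was at 1.60 and 0 CPM, and in the parenchymal fibroblasts that made up most of the primary tumor class it was at 1.42, 1.85 and 0.971 CPM. Parenchymal cells of the primary tumor also gave Timp1 (1018, 521 and 976 CPM) and Adamts4 (76.5, 48.0 and 56.0 CPM). These subtypes were defined from the same cells and were not tested against each other.

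**Figure D2:**
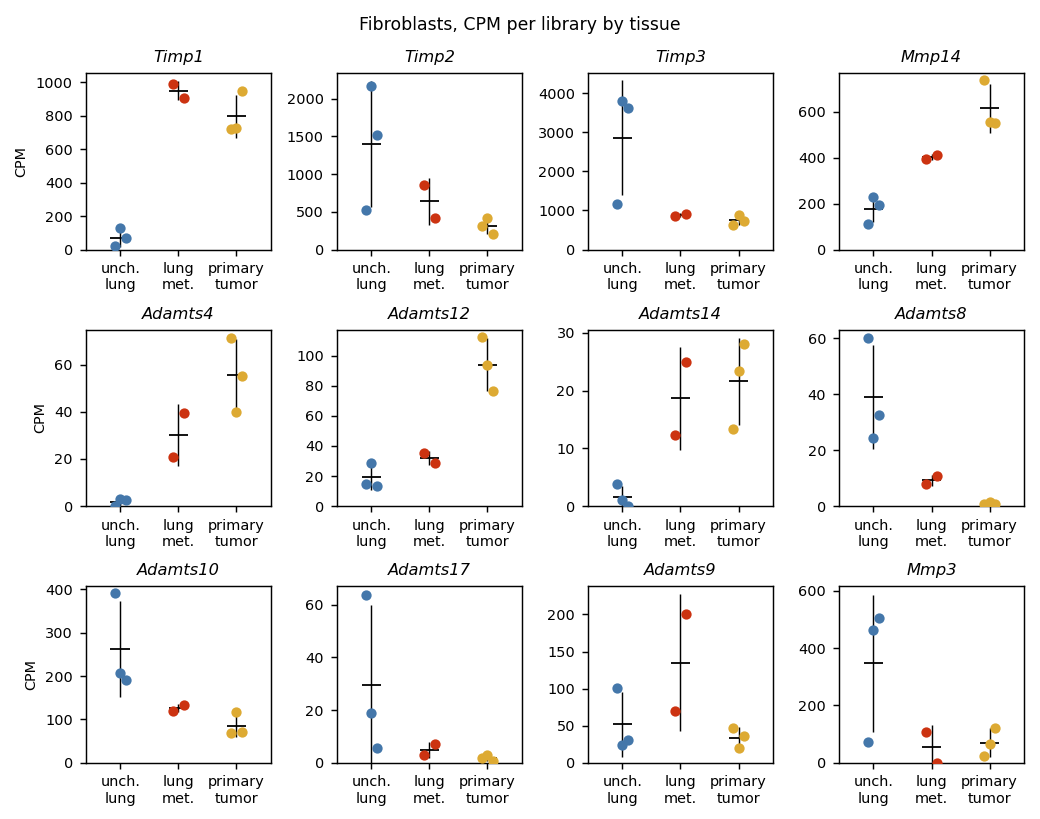
Each point is 1 library, with CPM on the vertical axis of each panel and the tissues of origin on the horizontal axis, and lines give the mean and SD over libraries (n = 3, 2 and 3). Timp1 and Adamts4 sit higher at both tumor sites than in unchallenged lung, with 212 of 429 and 31 of 49 cells of the metastasis points mesothelial, and Adamts8 is ordered unchallenged lung, metastasis, primary tumor without overlap.

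The other genes of the matrix turnover system moved as follows in fibroblasts. Of 12 substrates, 10 were tested and 7 rose in the primary tumor against unchallenged lung, Tnc by 6.93, Col1a1 by 2.59, Col4a1 by 2.56, Vcan by 2.46, Fn1 by 2.32, Col3a1 by 2.17 and Fbn1 by 1.62 on the log2 scale. Against unchallenged lung 3 of them rose in the metastasis (Tnc 3.58, Fn1 2.51 and Col4a1 1.79). Of 16 other proteases tested, 5 rose in the primary tumor (Adam12 8.97, the serine protease Fap 3.31, Plau 2.88, the procollagen C-proteinase Bmp1 1.66 and Adam19 1.43) and 2 in the metastasis (Adam12 9.28 and Bmp1 1.78). Of 8 activators, receptors and regulators, Reck, a membrane-bound inhibitor of Mmp enzymes, fell in the metastasis and in the primary tumor (-3.24 and -2.81), and Spock2 was lower in both (-2.72 and -5.68), while Sdc1 rose (2.13 and 3.39) and Tfpi2 rose in the primary tumor (3.53). Of 6 ADAMTS-like genes, which lack the protease domain, Adamtsl3 fell in the metastasis and in the primary tumor (-2.90 and -2.55), and Adamtsl2 fell in the primary tumor (-5.24). Between the tumor sites Spock2 (2.96) and Adamtsl2 (4.37) were higher in the metastasis, and Tfpi2 (-2.20), Fap (-2.59), Plau (-2.73) and Tnc (-3.35) were lower. MM markers differed between the tissues as given above, and their part in these results was not tested.

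In endothelium the primary tumor stood apart. Of 13 members tested against unchallenged lung, 8 rose and 1 fell, with 14.6% of 9630 genes higher and 13.9% lower, a median log2 fold change of 2.28 over the members and of -0.02 over all genes. The libraries did not overlap for 9 of the 13 and for 35.0% of all genes. Adamts18 (chromosome 8, 113697126 to 113848738) was at 0.335, 0.730, 1.01 and 1.73 CPM in unchallenged lung replicates 1, 4, 5 and 6, at 0, 3.22, 0.353 and 12.2 CPM in the metastasis and at 91.9, 67.4, 39.7 and 92.6 CPM in the primary tumor (log2 fold change against unchallenged lung 6.45, SE 0.61, adjusted p = 5.8e-06). Adamts5 (chromosome 16, 85856173 to 85901828) was at 2.01, 1.46, 5.74 and 6.92 CPM, then 16.4, 0, 20.8 and 51.5 CPM, then 236, 165, 243 and 219 CPM in the same order (5.99, SE 0.63, adjusted p = 1.1e-05). Adamts4 had 2 UMIs in all 4 libraries of unchallenged lung and read 43.9, 61.1, 68.1 and 62.7 CPM in the primary tumor (8.49, SE 0.61, adjusted p = 8.8e-07), a ratio of 525 with a counting interval of 143 to 4362. All 3 genes encode proteases of the Adamts family, 2 of which are the main aggrecan-cutting enzymes. Adamts9 was at 23.4 to 91.8 CPM in unchallenged lung and 177 to 339 CPM in the primary tumor (2.28, SE 0.36, adjusted p = 0.00027), and Adamts1, which lies close to Adamts5, was at 120 to 201 CPM and 252 to 362 CPM (1.15, SE 0.25, adjusted p = 0.0030).

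The same comparison raised Mmp2 and its activator Mmp14 in endothelium. Mmp2 (chromosome 8, 92827291 to 92853420) was at 5.25 to 15.0 CPM in unchallenged lung, 16.4, 43.5, 87.6 and 62.3 CPM in the metastasis and 156, 211, 190.1 and 193 CPM in the primary tumor (4.28, SE 0.39, adjusted p = 5.0e-06 for primary tumor against unchallenged lung). Mmp14 was at 28.6 to 37.5 CPM, then 65.6, 51.5, 135 and 92.1 CPM, then 199.7, 238, 311 and 277 CPM (3.09, SE 0.29, adjusted p = 5.8e-06). The 3 tissues did not overlap for either gene. For Mmp2 the gap between metastasis and unchallenged lung lies within counting error, since the 16.4 CPM of metastasis replicate 1-3 are 3 UMIs. Timp1 was at 3.35, 0.730, 4.56 and 4.33 CPM in unchallenged lung, 32.8, 4.83, 71.0 and 88.0 CPM in the metastasis, and 43.9, 34.3, 59.6 and 286 CPM in the primary tumor (5.34, SE 0.84, adjusted p = 0.00026, and 4.05 without primary tumor replicate 6). Timp2 fell by 0.67 (SE 0.23, adjusted p = 0.038), from 389 to 599.7 CPM in unchallenged lung to 234 to 328 CPM in the primary tumor, and lost its call without primary tumor replicate 4 (adjusted p = 0.090), 5 (0.065) or 6 (0.12) or unchallenged lung replicate 1 (0.061), 5 (0.073) or 6 (0.11). Its call was also lost with the replicate number as a block (-0.68, adjusted p = 0.079), without the filter on low counts (adjusted p = 0.053) and in the run of replicates 5 and 6 (-0.89, adjusted p = 0.053). Without unchallenged lung replicate 4 the change of Adamts4 was 7.87. Timp3, the member with the highest median in endothelium, was at 323 to 653 CPM in unchallenged lung and 336 to 603 CPM in the primary tumor (0.18, SE 0.33, adjusted p = 0.71). Summed Mmp per summed Timp CPM was 0.131 to 0.181 in unchallenged lung, 0.0982 to 0.390 in the metastasis and 0.414 to 0.843 in the primary tumor.

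Endothelium of the metastasis lay between the other tissues for most of these genes. Its libraries held 715 cells of the capillary cluster led by Glp1r and 233 of that led by Car4, against 7 and 2 in the primary tumor. Unchallenged lung held 2888 and 983 cells of these clusters, and the part of adjacent lung in the metastasis values was not tested. Against unchallenged lung, 5 of 13 members rose and 1 fell, where 2.85% of all genes rose and 0.696% fell. The median log2 fold change was 0.75 over the members and 0.00 over all genes, and 5 members had libraries that did not overlap (6.96% of all genes). The risers were Adamts4 (5.59, SE 0.72, adjusted p = 0.00067, 45 against 2 UMIs, ratio 87.0 with a counting interval of 22.7 to 741), Timp1 (4.20, SE 0.84, adjusted p = 0.011), Adamts5 (2.73, SE 0.65, adjusted p = 0.030), Mmp2 (2.54, SE 0.38, adjusted p = 0.0014) and Mmp14 (1.51, SE 0.28, adjusted p = 0.0070). Mmp15, the leading member of ciliated and AT-2 cells, fell from 60.6 to 80.8 CPM in unchallenged lung to 11.3 to 35.0 CPM (-1.42, SE 0.31, adjusted p = 0.019). Adamts5 was not called without metastasis replicate 5 (adjusted p = 0.10) or 6 (2.06, adjusted p = 0.13) or unchallenged lung replicate 1 (0.081) or 4 (0.079), Mmp15 not without metastasis replicate 6 (0.083) or unchallenged lung replicate 1 (0.055), and Timp1 not without metastasis replicate 5 (0.069). With the replicate number as a block, which follows the sequencing run, the calls of Adamts5 (2.30, adjusted p = 0.061) and Mmp15 (-1.39, adjusted p = 0.067) were lost. Without metastasis replicate 5 the change of Adamts4 was 4.16, and without unchallenged lung replicate 4 it was 4.98. Within the run of replicates 5 and 6 Mmp15 was not called in the metastasis (-1.03, adjusted p = 0.061). There 9 of 16 members were called against unchallenged lung in the metastasis (22.2% of all genes) and 11 in the primary tumor (29.5%), among them Timp1 (4.20 and 5.39), Mmp2 (2.55 and 3.88) and Adamts9 (1.65 and 3.35).

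Between the tumor sites, 7 of 13 members were lower in endothelium of the metastasis and none was higher, with 5.39% of all genes lower and 6.60% higher, a member median of -1.33 and a median over all genes of 0.03. The 7 were Adamts18 (-4.46, SE 0.64, adjusted p = 0.00052), Adamts5 (-3.26, SE 0.57, adjusted p = 0.0019), Adamts4 (-2.89, SE 0.44, adjusted p = 0.00077), Mmp2 (-1.74, SE 0.36, adjusted p = 0.0050), Adamts9 (-1.67, SE 0.37, adjusted p = 0.0083), Mmp14 (-1.58, SE 0.28, adjusted p = 0.0021) and Mmp15 (-1.33, SE 0.33, adjusted p = 0.015). For each of them the 4 libraries of one site did not overlap with the 4 of the other, which was the case for 15.1% of all genes. The call for Mmp15 was lost without metastasis replicate 6 (adjusted p = 0.055) or primary tumor replicate 6 (0.092). Without metastasis replicate 5 the changes were -4.31 for Adamts4 and -3.47 for Adamts18, and without replicate 6 they were -3.92 for Adamts5 and -6.25 for Adamts18. With the replicate number as a block, which at replicate 4 joins different mice, all 7 were called again and Mmp16 was added (2.52, adjusted p = 0.038), with 11.9% of all genes called. The run of replicates 5 and 6 alone called 7 of 16 members and 7.71% of all genes, with Mmp16 (2.32) in place of Mmp15 (-1.25, adjusted p = 0.068). Without metastasis replicate 5, Timp3 was called as higher in the metastasis (0.83, adjusted p = 0.045), and Timp2 as lower than in unchallenged lung (-0.95, adjusted p = 0.035).

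The endothelial class joined 3 clusters whose shares differed between the tissues, and nearly all endothelium of the primary tumor lay in 1 of them, led by Vwf, a marker of larger vessels. In this cluster alone (11 libraries with at least 20 cells), Adamts18 was at 0 to 6.65 CPM in unchallenged lung, 0 to 23.1 CPM in the metastasis and 39.7 to 106 CPM in the primary tumor. Mmp2 was at 39.9 to 55.7 CPM, 77.0 to 144 CPM and 179 to 211 CPM, so that its 3 tissues stayed apart. Against unchallenged lung 9 of 14 members rose in the primary tumor in this cluster, where 10.9% of all genes were higher and 11.1% lower, namely Adamts8 (7.45), Adamts1 (0.78), Adamts4 (6.14), Adamts18 (5.89), Adamts5 (3.84), Timp1 (3.49), Adamts9 (3.26), Mmp14 (2.59) and Mmp2 (2.05), while Mmp16 (-4.33) and Adamts10 (-1.33) fell and Timp2 was not called (-0.20, adjusted p = 0.56). Adamts8 had no UMI in the 4 unchallenged lung libraries of the cluster and read 64.4, 45.8, 4.26 and 20.9 CPM in the primary tumor, so that its fitted change has no fixed size. Mmp16 was at 22.2 to 53.2 CPM in unchallenged lung, 0 to 23.1 CPM in the metastasis and 0 to 3.73 CPM in the primary tumor. The metastasis stayed lower than the primary tumor for Adamts18 (-3.59), Adamts5 (-2.20), Adamts4 (-1.73) and Mmp2 (-1.03) and was higher for Mmp16 (3.19), but Adamts9 (-1.09, adjusted p = 0.17), Mmp14 (-0.98, adjusted p = 0.11) and Mmp15 (-0.85, adjusted p = 0.25) lost their calls (3.49% of all genes were called). Against unchallenged lung the metastasis kept Adamts4 (4.41), Timp1 (2.62), Adamts5 (1.63), Mmp14 (1.61) and Mmp2 (1.02), gained Adamts9 (2.17) and lost Mmp15 (-0.45, adjusted p = 0.47), with 8.88% of all genes called. In the largest endothelial cluster, led by the capillary genes Glp1r and Npr3, Mmp15 was at 77.0 to 102 CPM in unchallenged lung and 8.73 to 29.2 CPM in the metastasis, and in unchallenged lung Timp2 was at 907 to 1047 CPM in the cluster led by Car4 and Ednrb, markers of the capillary cells called aerocytes, against 273 to 338 CPM in the Glp1r cluster and 262 to 372 CPM in the Vwf cluster.

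**Figure D3:**
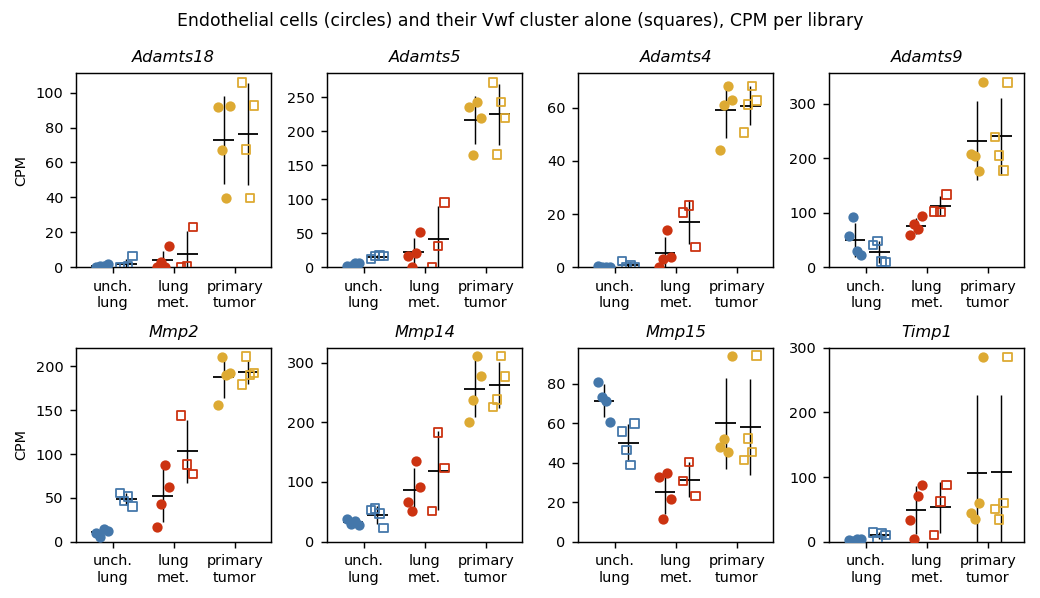
Each point is 1 library, with CPM on the vertical axes and the tissue on the horizontal axes, circles for all endothelial cells and squares for the Vwf cluster alone, and lines give the mean and SD. The primary tumor values of Adamts18, Adamts5, Adamts4, Adamts9, Mmp2 and Mmp14 lie above those of both other tissues with either choice of cells.

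Among the other genes of matrix turnover in endothelium, 10 of 11 substrates tested rose in the primary tumor against unchallenged lung, with Tnc (9.36), Col1a1 (7.01), Col3a1 (5.87), Vcan (5.45), Dcn (4.76), Fn1 (4.64), Fbn1 (3.71), Col4a1 (2.47), Bgn (1.99) and Eln (1.94). Summed fibroblast markers, which include Col1a1, Col3a1 and Dcn, were at 49.9 to 520.3 CPM in endothelium of unchallenged lung, 93.0 to 1059 CPM in the metastasis and 747 to 2505 CPM in the primary tumor, and MM markers at 1.60 to 6.92, 475 to 7555 and 218 to 1722 CPM. Their part in the results was not tested. Of 13 other proteases, 8 rose, namely Htra1 (3.98), Adam12 (3.10), Bmp1 (2.05), Ctsb (1.91), Adam19 (1.63), Adam9 (1.41), Plau (1.29) and Adam10 (0.89). Sdc1 (3.60) rose among 5 activators, receptors and regulators, and of 2 ADAMTS-like genes Adamtsl1 rose (6.67) and Adamtsl5 fell (-5.19). In the metastasis against unchallenged lung, 4 substrates rose (Tnc 6.89, Fn1 3.82, Vcan 2.26 and Col4a1 1.42) and no gene of the other lists was called. Between the sites, Fbn1 (-3.49), Vcan (-3.19), Bgn (-2.33) and Col4a1 (-1.05), 6 proteases (Htra1 -3.14, Plau -2.21, Bmp1 -1.24, Adam9 -1.22, Adam10 -1.11 and Adam17 -0.96), Sdc1 (-2.59) and Adamtsl1 (-3.49) were lower in the metastasis, and Adamtsl5 (4.03) was higher.

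In macrophages, Timp1 and Mmp14 were the members that rose at both tumor sites. Timp1 was at 0, 0, 0.478 and 0.530 CPM in unchallenged lung replicates 1, 4, 5 and 6, at 25.6, 0, 61.5 and 89.3 CPM in metastasis replicates 1-3, 4, 5 and 6, and at 41.5 and 43.3 CPM in primary tumor replicates 1-3 and 4. Metastasis replicate 4, with 35 macrophages and a floor of 15.7 CPM for 3 UMIs, was the tumor library at 0. The log2 fold change against unchallenged lung was 6.72 in the metastasis (SE 0.81, adjusted p = 0.0018) and 6.73 in the primary tumor (SE 0.80, adjusted p = 0.00046). Without metastasis replicate 6 the first was 6.05, and without unchallenged lung replicate 6 they were 7.39 and 7.37. Mmp14 was at 11.5, 31.0, 13.4 and 13.9 CPM, then 57.0, 141, 132 and 122 CPM, then 139 and 144 CPM, and neither tumor site overlapped with unchallenged lung (2.77, SE 0.35, adjusted p = 0.0022, and 3.31, SE 0.37, adjusted p = 0.00033). These were the 2 of 16 members called in the metastasis, with 1.30% of all 11035 genes higher. The libraries did not overlap for 3 of the 16 members and for 8.37% of all genes.

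In macrophages of the primary tumor 3 members rose and 1 fell, with 6.01% of all genes higher and 9.24% lower, a member median of -0.71 and a median over all genes of -0.02. The libraries did not overlap for 8 of the 16 and for 45.2% of all genes. The riser besides Timp1 and Mmp14 was Mmp2, at 0.478 to 3.26 CPM in unchallenged lung and 8.15 and 10.9 CPM in the primary tumor (2.37, SE 0.57, adjusted p = 0.016). The faller was Adamts2, which trims procollagen, at 4.96 to 11.5 CPM against 0.370 and 0.988 CPM (-3.08, SE 0.75, adjusted p = 0.016). Both lost the call without either primary tumor library (Mmp2 adjusted p = 0.079 without replicate 1-3 and 0.20 without replicate 4, Adamts2 0.16 and, at -4.12, 0.14), and Mmp2 was at 3.09 without unchallenged lung replicate 6. The replicate block also ended the call of Adamts2 (-2.78, adjusted p = 0.15), which was too low to be tested without unchallenged lung replicate 6. The elastase Mmp12 was at 88.3, 141, 21.0 and 22.7 CPM in unchallenged lung and 619 and 174 CPM in the primary tumor, which did not overlap but did not pass the test (2.75, SE 0.97, adjusted p = 0.074). It passed under 4 alternatives, without the filter on low counts (adjusted p = 0.00050) and without metastasis replicate 1-3 (0.048) or 4 (0.049) or unchallenged lung replicate 4 (0.048). It ran from 15.7 to 408 CPM in the metastasis. Timp2 (1.18, adjusted p = 0.051) and Timp3 (-2.94, adjusted p = 0.053) were just outside the threshold in the primary tumor. Timp2 was called there under 5 alternatives, by DESeq2 (adjusted p = 0.033), without the filter (0.012) and without metastasis replicate 4 (0.021) or 5 (0.023) or unchallenged lung replicate 4 (0.027), and was at 0.16 (adjusted p = 0.84) in the C1q cluster alone. Timp3 was called under 6, by DESeq2 (adjusted p = 0.019), without the filter (0.00031), with the replicate block (-2.33, adjusted p = 0.027), without metastasis replicate 1-3 (0.033) or unchallenged lung replicate 1 (0.0031) and in the C1q cluster (0.045). In the metastasis they were at 0.65 (adjusted p = 0.36) and -0.97 (adjusted p = 0.60). Between the tumor sites none of 16 members was called by edgeR or by DESeq2, 0 had an unadjusted p under 0.05 in edgeR and 1 in DESeq2, and 0.562% of all genes were called. The median was 0.30 over the members and 0.00 over all genes, and the libraries overlapped for each of the 16 (14.2% of all genes had none). In the run of replicates 5 and 6, 5 of 12 members and 10.3% of all genes were called between metastasis and unchallenged lung, the members being Timp1 (7.33), Mmp14 (3.35), Mmp2 (3.04), Mmp12 (2.59) and Mmp9 (-3.26), and too few primary tumor macrophages were in that run for a value.

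The macrophage class joined a cluster of alveolar macrophages, found mostly in unchallenged lung, and a cluster led by the C1q genes, found mostly in the primary tumor. The C1q cluster alone gave a different view of 2 proteases. Mmp19 was at 7.79, 5.28, 15.9 and 6.66 CPM in its unchallenged lung cells, 41.4, 41.7, 23.0 and 80.2 CPM in the metastasis and 74.1 and 92.2 CPM in the primary tumor (2.59, adjusted p = 0.0016, and 3.36, adjusted p = 0.00025, against unchallenged lung). The collagenase Mmp13 was at 148, 137, 58.2 and 67.7 CPM, then 34.1, 16.7, 0 and 6.50 CPM, then 15.2 and 12 CPM (-2.32, adjusted p = 0.0096, and -2.86, adjusted p = 0.0024). Neither gene overlapped between unchallenged lung and a tumor site, and neither was called in the joined class (Mmp19 0.31 and 1.01, Mmp13 -0.81 and -0.64). Timp1 (6.76 and 6.27) and Mmp14 (1.29 and 1.37) were called again in the C1q cluster (8.55% and 9.51% of all genes were called), Timp3 (-2.15) was called in the primary tumor, and Mmp2 and Adamts2 were too low to be tested. Mmp12 was at 111 to 487 CPM in C1q cells of unchallenged lung and at 0 to 11.0 CPM in the alveolar macrophages of the same libraries. In the alveolar macrophages of metastasis replicate 1-3 it was at 242 CPM. Neutrophil markers were at 45.9 to 6075 CPM in macrophages of unchallenged lung, MM markers at 1.24 to 8.15 CPM there and at 219.8 to 3267 CPM in the tumor sites, and their part was not tested.

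**Figure D4:**
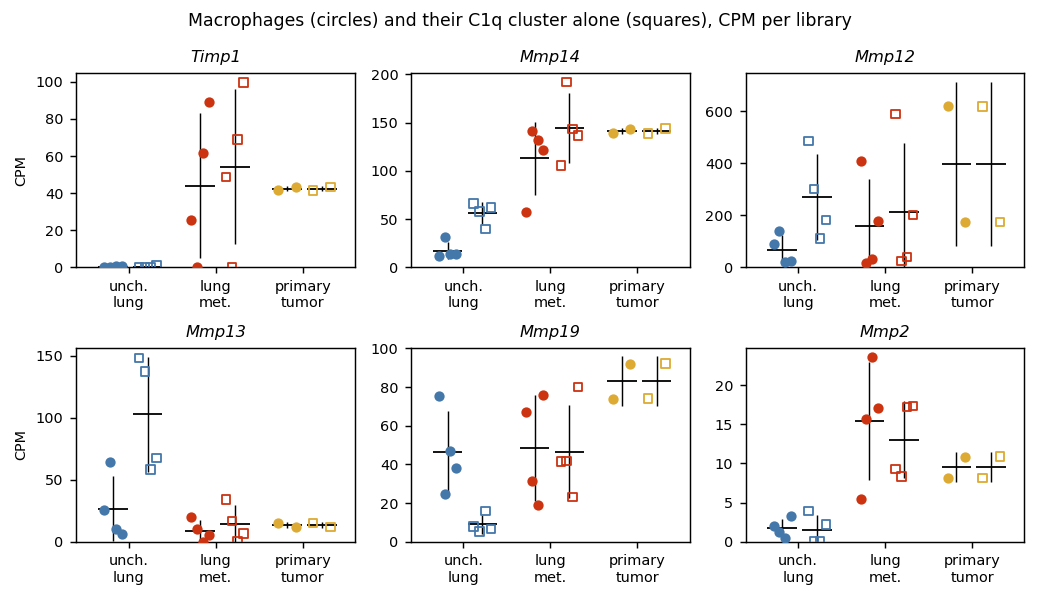
Each point is 1 library, with CPM on the vertical axes and the tissue on the horizontal axes, circles for all macrophages and squares for the C1q cluster alone, and lines give the mean and SD. In the C1q cluster Mmp13 is higher and Mmp19 lower in unchallenged lung than at both tumor sites, while all macrophages together show no such gap.

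Other proteases moved with these members in macrophages. Of 14 tested, Adam8 (2.51), Plau (1.74), Ctsl (1.57) and Ctsb (1.16) rose and Adam19 (-1.68) fell in the metastasis. In the primary tumor 6 rose (Plau 2.79, Adam8 2.58, Ctsb 1.58, Ctsl 1.56, Adam15 1.15 and Adam9 1.14) and Adam33 (-3.06) fell. Of 9 substrates, Vcan (4.05 and 3.89) and Fn1 (3.51 and 2.80) rose at both sites, and in the primary tumor Col1a1 (2.92) rose while Eln (-2.45) and Vwf (-3.04) fell. Of 5 activators, receptors and regulators Sdc1 (2.82) and Bsg (1.07), the inducer of Mmp expression also called CD147, rose in the primary tumor. No gene of the lists was called between the tumor sites. Neither of 2 ADAMTS-like genes was called.

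In neutrophils, 5 members were high enough to be tested. Timp1 had 0 UMIs in unchallenged lung replicates 1, 4 and 5 and 6 UMIs (5.85 CPM) in replicate 6, against 21.7, 115 and 82.5 CPM in metastasis replicates 1-3, 5 and 6 and 26.5 and 30.7 CPM in primary tumor replicates 1-3 and 4. Neither tumor site overlapped with unchallenged lung, and Timp1 rose in the metastasis (5.20, SE 0.92, adjusted p = 0.0022) and in the primary tumor (4.08, SE 1.08, adjusted p = 0.032), where it rested on 20 UMIs. The floor for 3 UMIs was 45.4 CPM in unchallenged lung replicate 1 (28 cells) and 18.5 CPM in replicate 4 (52 cells). In primary tumor replicate 1-3, with 2 UMIs, it was 39.8 CPM, so that these libraries say little on the overlap. The call in the primary tumor was lost without primary tumor replicate 4 (adjusted p = 0.41) or unchallenged lung replicate 5 (2.88, adjusted p = 0.12) and with the replicate number as a block (5.96, adjusted p = 0.097). Without unchallenged lung replicate 6 no Timp1 UMI was left in that group, so that the fitted changes have no fixed size, though both were called (adjusted p = 0.0029 and 0.015). Without replicate 5 the change of the metastasis was 4.01. Metastasis replicate 6 held 48 of the UMIs of its site, and without it Timp1 did not pass the filter on low counts. In the run of replicates 5 and 6 Timp1 was called in the metastasis as well (5.67).

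The granule collagenase Mmp8 was at 893, 437, 521 and 664 CPM in unchallenged lung, 498, 286 and 500.3 CPM in the metastasis and 106 and 177 CPM in the primary tumor. It fell in the primary tumor against unchallenged lung by 1.92 (SE 0.40, adjusted p = 0.0086), without overlap, and lost the call without primary tumor replicate 1-3 (adjusted p = 0.093) or 4 (0.056). Mmp9 (chromosome 2, 164940780 to 164955850) was at 1635, 1212, 1446 and 1917 CPM, 1196, 1145 and 954 CPM, and 690.1 and 728 CPM (-1.03, SE 0.31, adjusted p = 0.057). Both granule genes were thus lowest in the primary tumor, and for neither did the primary tumor overlap with another tissue. Mmp25 (-0.73 and -0.79) and Timp2 (0.75 and 0.49, adjusted p = 0.19 and 0.51) were not called, but Timp2 was called in the metastasis with the replicate block (1.08, adjusted p = 0.048). Of 5 members, 1 rose in the metastasis, with 11.2% of 3940 genes higher and 3.27% lower, and in the primary tumor 1 rose and 1 fell, with 6.29% and 1.29%. The libraries did not overlap for 2 members in the metastasis (25.7% of all genes), for 3 in the primary tumor (34.6%) and for 2 between the tumor sites (22.2%). Between the tumor sites none was called by edgeR or DESeq2, 1 had an unadjusted p under 0.05, and 0.203% of all genes were called. Fibroblast markers were at 12.3 to 81.9 CPM in neutrophils of unchallenged lung, 43.3 to 816 CPM in the metastasis and 53.1 and 615 CPM in the primary tumor, and the substrates Fn1 (3.40 and 2.71), Col1a1 (3.70 and 5.29) and Col3a1 (4.11 and 4.56) rose with them, as did Col4a1 (3.34) in the primary tumor. Ctsb (2.13 and 2.14) rose at both sites, and Ctsl (1.16) and Bsg (2.61) in the metastasis.

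Timp1 was the member called at both tumor sites in all 4 host classes. Of these 8 calls, 3 were lost under an alternative. That of fibroblasts of the metastasis was lost without the mesothelial subcluster (2.09, adjusted p = 0.14) and that of endothelium of the metastasis without metastasis replicate 5 (adjusted p = 0.069). That of neutrophils of the primary tumor was lost without primary tumor replicate 4 (0.41), without unchallenged lung replicate 5 (0.12) and with the replicate block (0.097). In neutrophils neither site had a Timp1 value without metastasis replicate 6, since Timp1 was then too low to be tested. These calls share the libraries of unchallenged lung and, across classes, the same mice. Since MM cells and fibroblasts also carry Timp1 and their markers were present in the other classes, its level is given beside those markers, and their part in the Timp1 values was not tested. Per 1000 CPM of summed MM markers, Timp1 was at 3.69 to 9.90 in sorted MM cells, at 12.7 to 45.8 in neutrophils of the tumor sites, at 9.39 to 166 in endothelium, the lowest of which lies within the range of the MM cells, and, leaving out the library at 0, at 18.8 to 149 in macrophages. In endothelium of unchallenged lung, where both levels were low, it was at 455 to 1800. Per 1000 CPM of summed fibroblast markers it was at 21.2 to 37.3 in fibroblasts of the tumor sites, at 19.4 to 353 in endothelium, at 49.9 to 500 in neutrophils and, with the same exception, at 228 to 1000 in macrophages. In endothelium, metastasis replicate 4 (19.4) lay below the range of the fibroblasts and primary tumor replicate 4 (31.9) within it. In each of these host classes the lowest ratio to MM markers, the library at 0 aside, was that of metastasis replicate 5, which had the most MM markers.

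**Figure D5:**
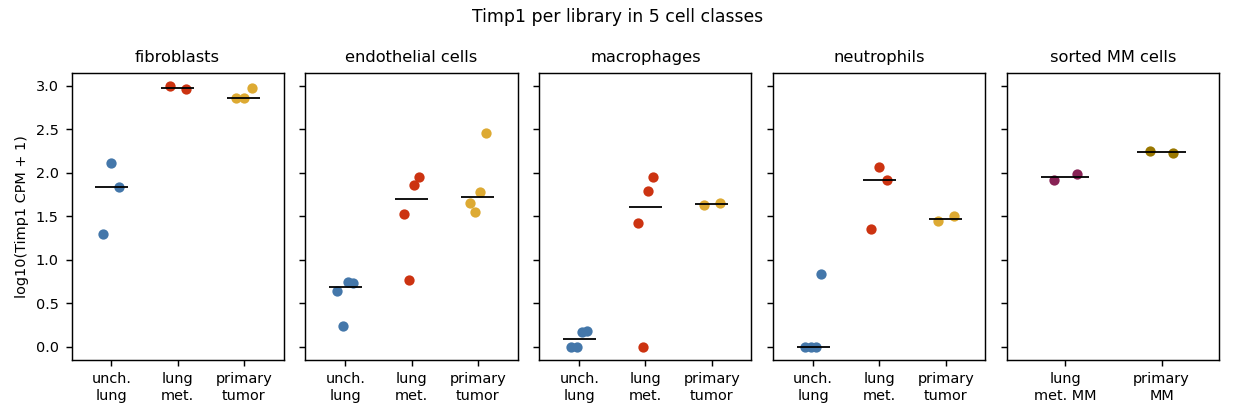
Each point is 1 library, with log10 of Timp1 CPM plus 1 on the vertical axis, tissues or MM groups on the horizontal axis and bars at the median. All 8 unchallenged lung libraries of macrophages and neutrophils are below 6 CPM, and 1 metastasis library of macrophages is at 0.

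In sorted MM cells the comparison of metastasis and primary tumor called none of 23 members by edgeR or DESeq2, 3 had an unadjusted p under 0.05, and 0.00700% of 14295 genes were called. The member median was -0.37 and that of all genes -0.03. Timp1 was at 81.2 and 96.9 CPM in lung metastasis MM replicates 4 and 5 and at 177 and 166 CPM in primary tumor MM replicates 4 and 5 (-0.98, SE 0.36, adjusted p = 1.00). Adamts5 was at 17.3 and 24.2 CPM against 31.5 and 92.4 CPM (-1.51, SE 0.42, adjusted p = 0.54). Neither overlapped between the groups, which was so for 8 of the 23 members and 25.6% of all genes. With 2 libraries a group, by their names the replicate 5 pair from 1 mouse and the replicate 4 pair from 2 mice, the block on the replicate number called Adamts5 (-1.50, adjusted p = 0.0031) and 0.797% of all genes. Timp2 (-0.03, SE 0.40), Mmp14 (0.02, SE 0.35) and Mmp2 (-0.02, SE 0.37) were close to no difference, with these errors. Timp3 was at 72.2 and 72.4 CPM against 38.8 and 64.1 CPM (0.49, SE 0.34) and Timp4 at 1.10 (SE 1.04). Of the other lists, 0 of 7 activators, receptors and regulators, 0 of 14 proteases, 0 of 6 ADAMTS-like genes and 0 of 9 substrates were called.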

How the data were processed

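Single-cell libraries were made with a 10x Genomics 3′ kit. Per the labels and the methods, the authors aligned reads with Cell Ranger 6.1.1 to the mouse genome GRCm38 (mm10), used Seurat 3.2.2 and removed cells by quantile filters. The deposited matrix held raw UMI counts for 110283 barcodes under 24 library names. For 5 names all counts equalled those of another name, and their 9924 barcodes were left out. These repeats stood under names of other mice, among them those of the samples labelled replicates 7 and 8 of both TME groups. For metastasis TME replicate 6 a repeat also stood under the name of an MM library. The name with the lower labelled replicate number was kept, and the labels do not tell which name is right. Among the names kept, replicate numbers of 4 (unchallenged lung replicate 1 and 3 of 4 MM libraries) differed from the labels. These were matched by the mouse in the name or as the last name of their group, on which the block in MM cells rests. The name matched to primary tumor TME replicate 7, a repeat that was left out, differed from its label as well. One name matched no sample, and 0 columns of per-sample values were unmapped.

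Cells were clustered with Seurat 5.3.0 (2000 variable genes without members, 17 principal components, resolution 0.5). UMIs were summed per library and class (at least 20 cells) and tested with edgeR 4.0.16 (quasi-likelihood, TMM, filterByExpr, 1 fit for 3 tissues, two-sided, Benjamini-Hochberg over all genes, called at 0.05). SE is the log2 fold change over the root of F. DESeq2 1.42.0 was an alternative. Tests were checked on simulated counts. R 4.3.3 and Python 3.11.15 were used.

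The members and gene lists were chosen with earlier results of these data known. Named were every Timp, the 5 highest members of each class, called members, and members without overlap at 20 CPM or more and a log2 change of 2 or more. Other pathway genes are named where called. Positions are from GENCODE (GRCm38) and promoters from RefSeq, with 31 of 45 members matched. Intervals and floors (3 UMIs) cover counting error only. Values at the low counts of few cells are less certain. The p-values rest on a spread estimated from few libraries, jointly over the groups of a fit and with information shared across genes.

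Replicate numbers follow the sequencing run, and by the names used replicates 5 and 6 of both tumor sites are the same mice, replicate 1-3 of the primary tumor holds the mice of that of the metastasis and 1 more, and replicate 4 is from different mice. Deviations from group means of same-numbered metastasis and primary tumor libraries correlated in endothelium at 0.15 to 0.16 for replicates 1-3, 5 and 6 and 0.00 for replicate 4, and at -0.03 and 0.26 in fibroblasts. Numbers shared with unchallenged lung are from other mice.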

Additional observations from a re-analysis of the deposited data

Results flagged for a closer look

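Of 50 groups of 4 or more libraries looked at, 5 had a library far from the rest by Dixon's criterion. Chance flags about 1 in 20 groups. Mmp14 in macrophages was at 31.0 CPM in unchallenged lung replicate 4, with the other libraries between 11.5 and 13.9 CPM. In endothelium, primary tumor TME replicate 6 held 94.1 CPM of Mmp15 (others up to 52.2 CPM) and 286 CPM of Timp1 (others up to 59.6 CPM), and lung metastasis TME replicate 5 held 380 CPM of Timp2 (others up to 257 CPM). Timp1 in neutrophils was at 5.85 CPM in unchallenged lung replicate 6 and at 0 in the other libraries, of which replicates 1 and 4 had floors of 45.4 and 18.5 CPM for 3 UMIs.

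Some genes read in opposite directions in different cell classes in every library, a difference that was not itself tested, and in each pair 1 of the values was not called by edgeR. Between metastasis and primary tumor Adamts9 was at 1.82 on the log2 scale in fibroblasts (adjusted p = 0.12, not called) and -1.67 in endothelium (0.0083). For the primary tumor against unchallenged lung it was at 2.28 in endothelium (adjusted p = 0.00027) and -2.59 in macrophages (0.13, not called). In that comparison Timp2 was at 1.18 in macrophages (adjusted p = 0.051, not called), -2.10 in fibroblasts (0.025) and -0.67 in endothelium (0.038). Timp2 was at 0.16 (adjusted p = 0.84) in the C1q macrophages alone and at -0.20 (adjusted p = 0.56) in the Vwf endothelium alone.

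Of 3 clusters left unnamed, which enter no comparison, the 2 larger ones (2 with 7494 cells and 14 with 1955 cells) held members above the level of every named class, and levels in the other, 21 with 99 cells, were not summed. Cluster 14 had all 8 MM markers raised and cluster 2 all 6 ciliated cell markers and 6 macrophage markers, but 0 of these markers were among the top 10 genes of either cluster. Cluster 21 had all 8 MM markers and 5 ciliated cell markers raised, with 0 in its top 10 as well. Adamts20 was at a median of 31.5 CPM in cluster 2 (13.2 CPM in ciliated cells). Cluster 14 held Adamts1 at 463 CPM (227 CPM in endothelium), Mmp2 at 254 CPM (233 CPM in MM cells), Mmp16 at 75.1 CPM (30.1 CPM) and Mmp17 at 25.2 CPM (16.3 CPM).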

How the results depend on the processing

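The counts are of members called and, in brackets, of all genes called, with LM for lung metastasis TME, PT for primary tumor TME and UL for unchallenged lung. With all libraries and the settings of the report they were 1 (415), 3 (564) and 10 (1789) in fibroblasts for LM against PT, LM against UL and PT against UL, 0 (62), 2 (160) and 4 (1683) in macrophages, 7 (1155), 6 (341) and 9 (2749) in endothelium, 0 (8), 1 (570) and 2 (299) in neutrophils, and 0 (1) in sorted MM cells. Counts within 1.5 times of these are not repeated. Without the filter on low counts, fibroblasts gave 7 (1023), 9 (1388) and 19 (2788), macrophages 441 and 538 genes and 13 (2693), endothelium 776 genes for LM against UL and 16 members for PT against UL, neutrophils 87 genes, 7 (1042) and 6 (748), and MM cells 1 (83). With DESeq2, 5 members were called in fibroblasts for LM against UL and 7 in macrophages for PT against UL, and the counts of all genes were 344 and 440 in macrophages of LM, 20 in neutrophils for LM against PT and 26 in MM cells. With at least 10 cells a library, 2 members were called in fibroblasts for LM against PT.

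With the replicate number as a block, 4 members were called in fibroblasts for LM against PT, 255, 242 and 1108 genes in macrophages, 2 genes, 2 members and 1 (152) in neutrophils, and 1 (114) in MM cells. Numbers shared with UL come from other mice, and the deviations of same-numbered libraries there correlated at -0.12 to 0.20. Replicates 5 and 6 alone gave 3 and 5 members in fibroblasts for LM against PT and UL, and for LM against UL 5 (1006) in macrophages, 2340 genes in endothelium and 5 (890) in neutrophils. They gave no value for PT in macrophages and neutrophils. Classes from a clustering with the members kept gave 2 genes, 3 (271) and 161 genes in neutrophils. All cells of the fibroblast class gave 0 (118) for LM against PT and 109 genes for LM against UL. Alternatives chosen after seeing the data were fibroblasts without the mesothelial subcluster, with 272 genes for LM against PT and 0 (156) for LM against UL, the C1q cluster, with 0 genes for LM against PT, 4 (598) for LM against UL and 665 genes for PT against UL, the Vwf cluster, with 291 and 740 genes for LM against PT and UL, and the larger MM cluster, with 5 genes. The causes of these shifts were not tested, except that the filter and the subsets change how many genes and cells are tested.

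Leaving out 1 library at a time gave, in the same order, 0 to 3 (63 to 533), 1 to 5 (112 to 626) and 6 to 12 (993 to 1984) in fibroblasts, 0 to 0 (0 to 249), 2 to 3 (63 to 343) and 2 to 9 (254 to 2098) in macrophages, 6 to 9 (764 to 1544), 4 to 7 (116 to 826) and 8 to 11 (2060 to 3222) in endothelium, 0 to 0 (1 to 31), 0 to 4 (197 to 812) and 0 to 5 (83 to 568) in neutrophils, and 0 to 1 (0 to 41) in MM cells. Where this left 1 library in a group, that library was assumed to vary like the others. Named members had 72 values with the settings of the report, of which 45 were called. A value that stayed uncalled in the same direction counts as kept, and alternatives in which a member was not tested are not counted. Of 1191 values of named members under all alternatives, 1076 kept direction and side of the threshold. A further 68 kept the direction without the call and 21 gained a call. The other 26, from 11 values, turned direction, and 0 of these were called with either setting. For LM against PT, they were Timp1 (-0.15 with the block, -1.29 without the mesothelial subcluster) and Timp3 (-0.16 with the block, -0.10 with at least 10 cells) in fibroblasts, Timp1 in macrophages (0.031 with DESeq2, 0.50 in the C1q cluster, -0.67 to 0.30 without 1 library), Timp1 (-1.44 to 0.16 without 1 library) and Timp2 (0.23 in replicates 5 and 6, -0.27 to 0.036 without 1 library) in endothelium, and Timp1 (-0.43 with the block) and Timp2 (-0.27 with the block, -0.10 to 0.54 without 1 library) in neutrophils. For UL they were Timp2 in macrophages of LM (-0.10 in the C1q cluster) and Timp3 in endothelium of PT (-0.48 in the Vwf cluster). In MM cells they were Timp2 (0.25 in the larger cluster, -0.23 to 0.21 without 1 library) and Timp4 (-7.89 to 3.63 without 1 library, the lowest without LM MM replicate 5, which left 0 UMIs in LM MM). Of 33 members, 31 kept the class of the highest median with the members kept in clustering, 27 had the same class by share of cells with a UMI after thinning and 29 without thinning. Low UMI numbers limit the rarer members.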
